A study of Mus musculus with 16 samples.

Results

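The subject is the nuclear genes named as subunits of respiratory complex I, followed in the hearts of mice on 4 diets. Members are the genes of the deposited table whose symbol starts with Nduf and the subunit letter a, b, c, s, v or ab and a number, leaving out assembly factors (Ndufaf) and symbols that contain -ps. The rule found 39 of the 17737 genes in the table, and all 39 passed the filter on low counts. They comprise 36 genes for proteins of the enzyme, 7 of them core subunits and 29 accessory, beside Ndufa4 and Ndufa4l2, which carry the name but are now assigned to complex IV, and Ndufb4c, a processed copy of Ndufb4. Ndufb1 and the complex I genes of the mitochondrial genome are not analysed here.

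Complex I, or NADH:ubiquinone oxidoreductase, is the entry point for electrons from NADH into the respiratory chain and pumps protons across the inner mitochondrial membrane. Its N module oxidises NADH, its Q module passes the electrons to ubiquinone, and its membrane arm, with a proximal and a distal part, carries the proton channels, whose core subunits are encoded in the mitochondrial genome. The core subunits hold the flavin and the iron-sulphur clusters or the channels and are shared with bacteria, while the accessory subunits surround and stabilise them. Heart muscle is packed with mitochondria, and the genes for respiratory enzymes are among the most abundant mRNAs of cardiomyocytes.

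The study asked about diet in cardiac ageing and fibrosis. Male C57BL/6 mice started at 6 weeks of age and were kept for 6 months on NIA (a primate formula), UW (another primate formula), mNIA (the NIA formula with its sucrose and fat set to those of UW) or chow (a standard rodent chow), with no genetic change or drug in any group. Poly-A RNA from the lower part of the ventricles was sequenced as stranded single reads of 75 bases, with RNA integrity above 7.0 throughout, and each of the 4 libraries of a diet is a single animal. Groups follow the diet in the sample titles and in the diet label. The library codes read MNC for the group titled NIA, NC for the group titled UW, UC for the group titled mNIA and CC for chow, so the names of the 3 formula groups rest on the titles. If groups were exchanged, each value below for a single formula would belong to another formula.

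Total counts were 2278223 to 63005361 per library in NIA, where replicate 4 was the lowest and replicate 2 the highest of all, and 3870426 to 6583503 elsewhere. Markers fitted the label ventricle: 10 cardiomyocyte markers together held 48006 to 108747 CPM, 5 skeletal muscle markers 0.804 to 4.14, and 3 atrial markers 65.4 to 226. CPM is the count scaled to the library total after TMM correction, values run in the order of replicates 1 to 4, and a library's level of a gene group is the median over its genes of log2 CPM minus each gene's median over the 16 libraries. Libraries that lie far from the mean of their diet were mNIA replicate 2, NIA replicates 1 and 4, and chow replicate 3, with limma quality weights of 0.36, 0.301, 0.16 and 0.234. The comparisons of diets are given with and without them. In bulk tissue, fewer cells of a type and less RNA per cell cannot be told apart.

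Some members cannot be counted cleanly with reads of 75 bases. Of the 39, 13 share at least 1 stretch of 75 bases with another annotated gene, and for 8 of these more than 10% of all such stretches are shared. Ndufb4c (chromosome 15) is the extreme: its 390 bases repeat the whole coding sequence of Ndufb4 (chromosome 16), bases 95 to 484 of a transcript of 971, so 100% of its stretches are also found in Ndufb4. The first shared stretch, bases 95 to 169 of Ndufb4 from its start codon (GENCODE vM21, GRCm38), is shown because a read with these letters fits both genes:

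Ndufb4 and Ndufb4c: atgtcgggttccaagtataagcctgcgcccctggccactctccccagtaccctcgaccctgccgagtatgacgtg

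Reads of Ndufb4 and Ndufb4c therefore cannot be told apart over that part, and the values of both are uncertain. Ndufs5 shares 32.4% of its stretches with BC002163, a processed copy with more counts: in chow replicate 3, for example, 81 counts stood at Ndufs5 and 1392 at BC002163. The others over 10% are Ndufab1 (27.6%), Ndufs3 (27.1%), Ndufa12 (22%), Ndufb9 (20.3%) and Ndufb2 (18.6%). No shared stretch was found for 26 members, including Ndufs1, Ndufv1 and Ndufv2.

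The promoters of the members were read from RefSeq (GRCm38.p6), as the 250 bases before the start, on the strand of the gene, with both strands searched. A promoter was matched for 33 of the 39 members. A motif of the kind bound by NRF1, an activator of nuclear genes for respiration, spelt GCGC, any 2 bases and GCGC again, was in 8 of them (24.2%) against 5.64% of 27025 promoters in all: Ndufa11, Ndufa5, Ndufa8, Ndufab1, Ndufb4, Ndufs5, Ndufs6 and Ndufv2. CCGGAAG, of the ETS type, was in 3 (9.09% against 7.83%), and AAGGTCA, of the type bound by oestrogen-related receptors, in 3 (9.09% against 4.7%). The promoters below are shown for an accessory subunit with large values in NIA (Ndufs6), a core subunit with large values in NIA (Ndufv2), another accessory subunit (Ndufa8) and a core subunit that differed little (Ndufv1, with no match), with the NRF1-type motif in capitals. A match is a description of the letters and not evidence of binding.

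Ndufs6 (chr13:73328483-73328732, minus strand): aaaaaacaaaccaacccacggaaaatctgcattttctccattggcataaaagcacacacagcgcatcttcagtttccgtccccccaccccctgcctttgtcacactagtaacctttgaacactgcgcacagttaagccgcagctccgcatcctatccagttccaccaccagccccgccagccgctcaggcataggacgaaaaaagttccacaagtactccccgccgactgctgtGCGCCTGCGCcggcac
Ndufv2 (chr17:66101560-66101809, minus strand): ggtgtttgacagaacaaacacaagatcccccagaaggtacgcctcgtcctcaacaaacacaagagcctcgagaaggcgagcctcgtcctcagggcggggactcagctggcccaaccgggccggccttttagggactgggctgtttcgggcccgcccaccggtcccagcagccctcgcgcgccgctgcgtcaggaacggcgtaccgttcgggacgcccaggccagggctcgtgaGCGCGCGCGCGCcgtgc
Ndufa8 (chr2:36049339-36049588, minus strand): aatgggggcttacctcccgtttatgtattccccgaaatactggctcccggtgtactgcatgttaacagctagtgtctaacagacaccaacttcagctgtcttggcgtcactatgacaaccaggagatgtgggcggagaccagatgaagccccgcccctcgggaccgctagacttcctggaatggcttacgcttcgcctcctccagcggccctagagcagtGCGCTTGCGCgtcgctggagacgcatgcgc
Ndufv1 (chr19:4012756-4013005, minus strand): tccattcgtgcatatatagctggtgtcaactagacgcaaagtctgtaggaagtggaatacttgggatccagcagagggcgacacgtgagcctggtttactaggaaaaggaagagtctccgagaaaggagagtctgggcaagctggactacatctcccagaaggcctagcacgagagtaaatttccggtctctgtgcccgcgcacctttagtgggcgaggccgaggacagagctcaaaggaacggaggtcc

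Complex I genes as a group were highest in a single NIA heart. In NIA replicate 4, 35 of the 39 members had their highest value of the 16 libraries, and the members took 2.49% of all counts (95% Wilson interval 2.472% to 2.512%, counting error only). In the other 15 libraries the members took 1.15% to 1.91%. The level of the members was -0.06, 0.41, -0.16 and -0.11 in the mNIA hearts, 0.04, 0.04, 0.48 and 1.62 in the NIA hearts, -0.42, -0.01, -0.10 and -0.32 in the UW hearts and 0.07, 0.06, 0.14 and -0.01 in the chow hearts. The 4 NIA hearts thus ranged more widely than those of the other 3 diets, and all 4 lay above all 4 UW hearts. This order depends on the TMM correction. Its factors were 0.618 in NIA replicate 4 and 0.759 in NIA replicate 1, against 1.01 to 1.25 in UW hearts. In the share of all counts, NIA replicate 1 (1.15%) lay below every UW heart (1.16% to 1.38%). At the low end, 19 members had their lowest value in UW replicate 1 and 13 in UW replicate 4. Over the 16 libraries, the highest value of a member was 1.69 times (Ndufv1) to 9.29 times (Ndufb4) its lowest, with a median of 4.4, and without NIA replicate 4 the median was 2.07.

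**Figure D1:**
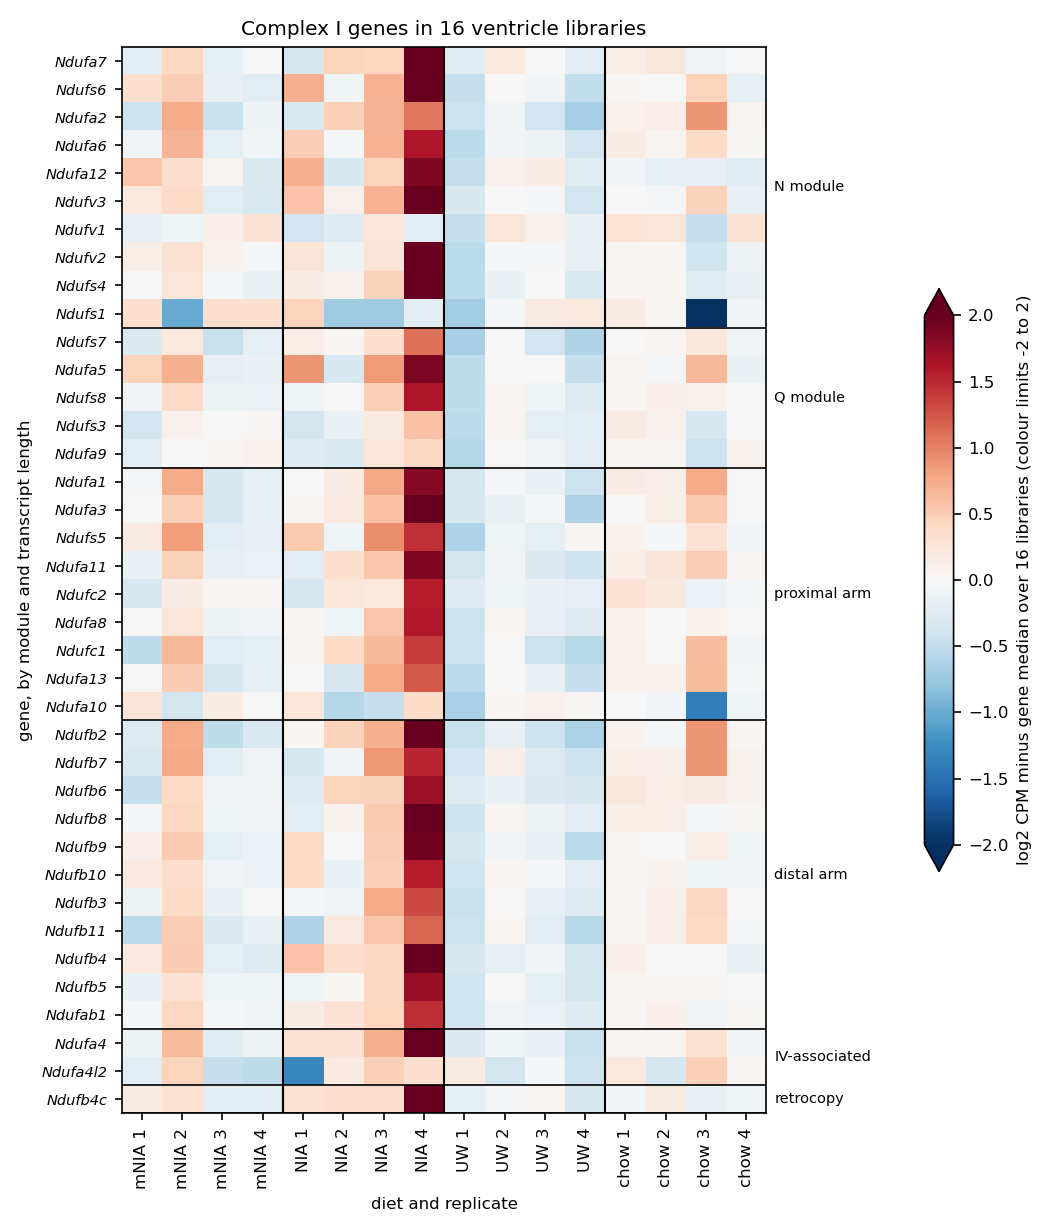
Colour shows log2 CPM minus the gene's median over 16 libraries for 38 of the 39 complex I genes (down, by module and, within it, by transcript length) in each library (across, by diet and replicate). Red fills the column of NIA replicate 4, where 35 of all 39 genes are highest, while Ndufs1 is below its median there and lowest in chow replicate 3.

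In chow hearts, levels per kilobase of transcript differed widely between members. The highest median was that of Ndufa4 (1257 CPM per kilobase), followed by Ndufb8 (1055), Ndufb9 (827) and Ndufb10 (752), all 3 of the distal membrane arm. The lowest medians per kilobase were those of Ndufa4l2 (19.9) and Ndufs5 (25.1). From which of the pair Ndufs5 and BC002163 the reads of their shared stretches came was not tested. Between these, Ndufs6 was at 575 and Ndufs4 at 141.

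The N module holds the site of NADH oxidation and has 10 members. Ndufv1 (chromosome 19, 4007499 to 4012756, minus strand, gene positions here and below as deposited, mm10) encodes the core subunit that binds the flavin and NADH. Ndufv1 had 555, 588, 670 and 762 CPM in mNIA hearts, 477, 525, 739 and 540 in NIA hearts, 451, 736, 664 and 572 in UW hearts and 758, 738, 455 and 764 in chow hearts. The 4 diets overlapped, and chow replicate 3 lay far below the other chow hearts. Ndufv2 (chromosome 17, 66078795 to 66101560, minus strand) encodes a core iron-sulphur subunit beside it. Ndufv2 had 675, 772, 654 and 607 CPM in mNIA hearts, 749, 584, 746 and 2466 in NIA hearts, 431, 606, 606 and 564 in UW hearts and 648, 642, 476 and 581 in chow hearts. NIA replicate 4 stood far above all other libraries, and all 4 mNIA hearts lay above all UW hearts. Ndufs1 (chromosome 1, 63143592 to 63176823, minus strand) encodes the largest core subunit, which carries iron-sulphur clusters to the Q module, and has the longest transcript of the members (2590 bases). Ndufs1 had 933, 371, 931 and 928 CPM in mNIA hearts, 1005, 452, 453 and 636 in NIA hearts, 460, 719, 838 and 857 in UW hearts and 819, 766, 172 and 714 in chow hearts. The groups overlapped, and single libraries were low: chow replicate 3 was the lowest, followed by mNIA replicate 2 and NIA replicates 2 and 3.

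Accessory subunits of the N module showed another order of libraries. Ndufs4 (chromosome 13, 114287795 to 114388095, minus strand) is needed for a stable N module, and its loss in mice gives a fatal encephalomyopathy. Ndufs4 had 251, 295, 244 and 227 CPM in mNIA hearts, 277, 265, 344 and 1028 in NIA hearts, 172, 227, 248 and 203 in UW hearts and 255, 257, 212 and 225 in chow hearts. All 4 NIA hearts lay above all UW and all chow hearts, by a wide margin in replicate 4 alone. Ndufs6 (chromosome 13, 73319876 to 73328483, minus strand) encodes a zinc-binding subunit at the joint with the Q module. Ndufs6 had 407, 458, 293 and 281 CPM in mNIA hearts, 540, 306, 524 and 1610 in NIA hearts, 235, 327, 313 and 232 in UW hearts and 330, 323, 441 and 286 in chow hearts. NIA replicates 1, 3 and 4 were higher than every UW and chow heart, while replicate 2 lay among them. Ndufv3 (chromosome 17, 31520115 to 31531326, plus strand) encodes a small subunit beside Ndufv1 and Ndufv2. Ndufv3 had 390, 438, 288 and 272 CPM in mNIA hearts, 497, 356, 545 and 1385 in NIA hearts, 267, 332, 327 and 258 in UW hearts and 339, 331, 459 and 300 in chow hearts. Every NIA heart was above every UW heart, and the NIA and chow hearts overlapped through chow replicate 3.

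Ndufa12 (chromosome 10, 94199035 to 94221439, plus strand) encodes the subunit that takes the place of the assembly factor Ndufaf2. Ndufa12 had 558, 474, 394 and 310 CPM in mNIA hearts, 622, 303, 517 and 1383 in NIA hearts, 273, 401, 421 and 321 in UW hearts and 364, 335, 337 and 320 in chow hearts. NIA replicate 2 was below every chow heart, whereas the other 3 NIA hearts were above every chow heart. Ndufa6 (chromosome 15, 82350139 to 82354292, minus strand) encodes a subunit that binds the acyl carrier protein Ndufab1. Ndufa6 had 240, 398, 220 and 241 CPM in mNIA hearts, 350, 246, 406 and 765 in NIA hearts, 174, 239, 233 and 191 in UW hearts and 277, 260, 322 and 253 in chow hearts. All UW hearts lay below all NIA and all chow hearts. Ndufa2, which has a thioredoxin-like fold, is the member with the smallest unadjusted p between UW and chow. Ndufa2 had 99.3, 221, 97.7 and 123 CPM in mNIA hearts, 107, 184, 211 and 277 in NIA hearts, 98.9, 128, 101 and 83.7 in UW hearts and 141, 146, 244 and 137 in chow hearts. All 4 UW hearts were below all chow hearts, and chow replicate 3 and mNIA replicate 2 were high in their groups. Ndufa7, the remaining gene of the module, ranged from 105 to 770 CPM, both in NIA hearts.

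The Q module holds the ubiquinone site and has 6 members. Ndufs7 (chromosome 10, 80249449 to 80256795, plus strand) encodes a core iron-sulphur subunit at the ubiquinone pocket. Ndufs7 had 218, 310, 195 and 237 CPM in mNIA hearts, 293, 275, 336 and 575 in NIA hearts, 168, 270, 206 and 176 in UW hearts and 265, 277, 314 and 256 in chow hearts. All NIA hearts were above all UW hearts, and NIA replicate 4 was the highest of the 16. Ndufs3 (chromosome 2, 90894627 to 90904722, minus strand) encodes a core subunit of the Q module without a metal centre, and 27.1% of its stretches are shared with a copy. Ndufs3 had 315, 437, 412 and 418 CPM in mNIA hearts, 318, 373, 466 and 614 in NIA hearts, 285, 427, 357 and 351 in UW hearts and 458, 436, 327 and 407 in chow hearts. The groups overlapped, and NIA replicate 4 was above the rest by less than for most members.

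Ndufs8 (chromosome 19, 3908863 to 3912775, minus strand) encodes a core subunit with iron-sulphur clusters on the path to the ubiquinone site. Ndufs8 had 211, 288, 204 and 202 CPM in mNIA hearts, 206, 217, 306 and 676 in NIA hearts, 154, 227, 207 and 181 in UW hearts and 225, 235, 234 and 222 in chow hearts. The 4 chow hearts lay close together, inside the range of the NIA hearts. Ndufa5 (chromosome 6, 24518664 to 24527691, minus strand) is an accessory subunit of the same module. Ndufa5 had 608, 727, 398 and 407 CPM in mNIA hearts, 824, 357, 801 and 1653 in NIA hearts, 313, 444, 449 and 325 in UW hearts and 462, 433, 701 and 407 in chow hearts. NIA replicate 2 was low, while the other 3 NIA hearts were above every UW heart and above every chow heart. Ndufa9, which binds a nucleotide cofactor next to the ubiquinone site, ranged from 359 CPM in UW replicate 1 to 715 in NIA replicate 4.

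The proximal membrane arm has 9 members, all accessory. Ndufa1 (chromosome X, 37187589 to 37191239, minus strand), on the X chromosome, encodes a short membrane subunit needed early in assembly. Ndufa1 had 172, 295, 140 and 155 CPM in mNIA hearts, 176, 195, 296 and 622 in NIA hearts, 137, 173, 160 and 130 in UW hearts and 195, 189, 294 and 175 in chow hearts. All UW hearts were below all NIA and all chow hearts. Ndufa10 (chromosome 1, 92439719 to 92473759, minus strand) encodes a subunit related to nucleoside kinases and has the second longest transcript (2020 bases). Ndufa10 had 694, 453, 646 and 580 CPM in mNIA hearts, 691, 392, 424 and 749 in NIA hearts, 370, 600, 618 and 592 in UW hearts and 585, 562, 222 and 547 in chow hearts. The diets overlapped, and chow replicate 3 and UW replicate 1 lay far below the other hearts of their diets. Ndufc1 (chromosome 3, 51405479 to 51408956, minus strand) encodes a small membrane subunit. Ndufc1 had 125, 283, 153 and 158 CPM in mNIA hearts, 186, 231, 281 and 469 in NIA hearts, 133, 177, 132 and 121 in UW hearts and 189, 179, 272 and 170 in chow hearts. Every NIA heart was above every UW heart.

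Ndufs5 (chromosome 4, 123712710 to 123718187, minus strand) encodes a subunit on the intermembrane side. Ndufs5 had 14.7, 23.4, 11.2 and 11.6 CPM in mNIA hearts, 18.9, 12.3, 24.9 and 36.3 in NIA hearts, 8.44, 12.2, 11.3 and 13.4 in UW hearts and 13.7, 12.7, 15.9 and 12.5 in chow hearts. Its levels were about as low as those of Ndufa4l2 and overlapped between diets, and 32.4% of its stretches are shared with BC002163. The 5 members of the proximal arm not given by library (Ndufa3, Ndufa8, Ndufa11, Ndufa13 and Ndufc2) all peaked in NIA replicate 4, at 1111, 1164, 713, 1095 and 516 CPM. Their means were 198, 334, 161, 392 and 155 CPM in UW hearts.

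The distal membrane arm has 11 members, all accessory. Ndufab1 (chromosome 7, 122086815 to 122101849, minus strand) is the mitochondrial acyl carrier protein, which also serves lipoic acid synthesis. Ndufab1 had 367, 497, 370 and 361 CPM in mNIA hearts, 418, 458, 504 and 1046 in NIA hearts, 285, 356, 343 and 312 in UW hearts and 379, 401, 358 and 379 in chow hearts. All NIA hearts were above all UW and all chow hearts, and all UW hearts were below all others. Ndufb8 (chromosome 19, 44548571 to 44555443, minus strand) is widely used as a protein marker of assembled complex I. Ndufb8 had 667, 916, 643 and 659 CPM in mNIA hearts, 591, 721, 983 and 2811 in NIA hearts, 513, 714, 641 and 582 in UW hearts and 748, 739, 674 and 696 in chow hearts. NIA replicate 4 was far above the other 15 libraries, and NIA replicate 1 was below all chow hearts. Ndufb2 (chromosome 6, 39592565 to 39599844, plus strand) has a short transcript (455 bases). Ndufb2 had 121, 244, 103 and 118 CPM in mNIA hearts, 150, 202, 240 and 634 in NIA hearts, 107, 131, 109 and 94.6 in UW hearts and 154, 142, 269 and 151 in chow hearts. All UW hearts were below all NIA and all chow hearts, and in mNIA and chow a single heart (replicate 2 and replicate 3) was far above the others of its diet.

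Ndufb4 (chromosome 16, 37647602 to 37654369, minus strand) and its copy Ndufb4c (chromosome 15, 73809458 to 73809934, minus strand) are given side by side. Ndufb4 had 166, 206, 127 and 121 CPM in mNIA hearts, 217, 185, 193 and 1051 in NIA hearts, 117, 127, 140 and 113 in UW hearts and 157, 146, 145 and 130 in chow hearts. Ndufb4c had 120, 133, 93 and 93.4 CPM in mNIA hearts, 132, 137, 134 and 703 in NIA hearts, 93.8, 105, 110 and 86.2 in UW hearts and 104, 122, 97 and 101 in chow hearts. In both, NIA replicate 4 stood far above the rest, and every NIA heart was above every UW and every chow heart. The other 7 members of the distal arm (Ndufb3, Ndufb5, Ndufb6, Ndufb7, Ndufb9, Ndufb10 and Ndufb11) peaked in NIA replicate 4, with values from 447 CPM (Ndufb6) to 2214 CPM (Ndufb9).

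Ndufa4 (chromosome 6, 11900372 to 11907451, minus strand), once counted to complex I and now to cytochrome c oxidase, was the most abundant member. Ndufa4 had 687, 1145, 624 and 689 CPM in mNIA hearts, 900, 899, 1205 and 4005 in NIA hearts, 601, 692, 674 and 543 in UW hearts and 764, 769, 912 and 710 in chow hearts. All NIA hearts were above all UW hearts, and all UW hearts were below all chow hearts. Its paralogue Ndufa4l2 (chromosome 10, 127514939 to 127517157, plus strand), which is known to be induced by low oxygen, was scarce. Ndufa4l2 had 14.7, 23.2, 12.3 and 11.9 CPM in mNIA hearts, 6.71, 19.4, 23.6 and 21.3 in NIA hearts, 19.2, 13, 16.5 and 12.6 in UW hearts and 19.7, 13.3, 23.8 and 17.4 in chow hearts. NIA replicate 1 was the lowest of the 16, and the diets overlapped.

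**Figure D2:**
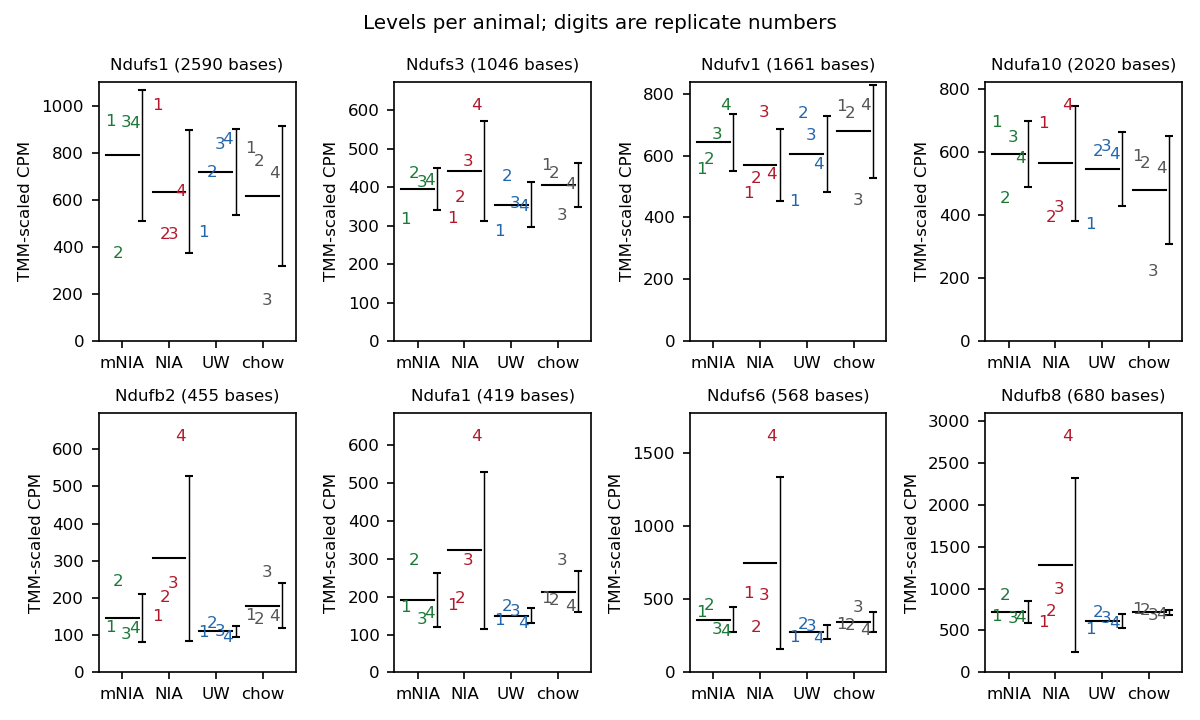
TMM-scaled CPM (vertical axis, from 0) of 8 complex I genes in each heart, by diet, with the replicate number as the symbol, the mean as a line and the SD (n = 4) as a bar beside it. NIA replicate 4 is far above the rest for Ndufb2, Ndufa1, Ndufs6 and Ndufb8, while for Ndufs1 and Ndufa10, with the longest transcripts, the lowest heart is chow replicate 3.

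The comparison of NIA with UW hearts had the largest median difference of the 6 pairs of diets. In NIA hearts 37 of the 39 members had a higher mean than in UW hearts, with a median log2 fold change of 0.97, where the median of all 13381 tested genes was 0.00. No member passed the adjusted p threshold of 0.05 in edgeR's quasi-likelihood test with Benjamini-Hochberg adjustment over all tested genes (0% of all genes passed, smallest adjusted p of a member 0.139). An unadjusted p under 0.05 with a higher mean in NIA was seen for 32 members, against 8.71% of all genes. For 13 members every NIA heart was above every UW heart, against 3.06% of all genes: Ndufa1, Ndufa3, Ndufa4, Ndufa6, Ndufab1, Ndufb2, Ndufb4, Ndufb4c, Ndufb9, Ndufc1, Ndufs4, Ndufs7 and Ndufv3. The largest log2 fold change was that of Ndufb4 at 1.72 ± 0.44 (SE, adjusted p = 0.139). That of Ndufa4 was 1.48 ± 0.41 (SE, adjusted p = 0.148), of Ndufb2 1.47 ± 0.39 (SE, adjusted p = 0.145), of Ndufs6 1.43 ± 0.39 (SE, adjusted p = 0.148) and of Ndufab1 0.90 ± 0.27 (SE, adjusted p = 0.178).

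Core and accessory subunits had different medians. The 29 accessory subunits all had higher means in NIA than in UW hearts (median log2 fold change 1.03), whereas the 7 core subunits had a median of 0.32, with 5 above 0. Ndufs1 was at -0.18 ± 0.42 (SE, 95% confidence interval -1.06 to 0.71) and Ndufv1 at -0.09 ± 0.25 (-0.61 to 0.44). Ndufv2, Ndufs7 and Ndufs8 had values of 1.04 ± 0.36, 0.85 ± 0.26 and 0.87 ± 0.31. By module the medians were 1.06 for the N module, 0.58 for the Q module, 0.96 for the proximal arm and 0.97 for the distal arm. The difference between core and accessory subunits was not tested.

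The call between NIA and UW depended on the tool and on single libraries. DESeq2 called 20 of the 39 members, against 2.8% of all genes, all with higher means in NIA, and limma-voom with quality weights called 7, against 6.85%. Without NIA replicate 4 the median log2 fold change was 0.45 and 18 members had an unadjusted p under 0.05, against 7.84% of all genes in either direction. In the main fit 1858 of the 13381 tested genes had such a p in either direction. Without NIA replicate 2 edgeR called 8 members, against 1.61% of all genes, and with the 4 libraries of low weight removed it called 14, against 11.8%, with a median of 0.54. Leaving out libraries that lie far from their group's mean narrows the spread by construction. Of those 14, 13 were higher in NIA hearts, and Ndufs1 was lower.

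Hearts on mNIA were set against hearts on NIA, diets that differ in sucrose and fat. In mNIA hearts 35 of 39 members had a lower mean, with a median log2 fold change of -0.68 (all genes -0.01). No member passed in edgeR (0% of all genes, smallest adjusted p 0.549), and 20 had a lower mean with an unadjusted p under 0.05, against 5.65% of all genes. No member was free of overlap between the diets (background 0.882% lower and 1.46% higher). Ndufb4 was at -1.40 ± 0.44 (SE, adjusted p = 0.549) and Ndufa4 at -1.15 ± 0.40 (SE, adjusted p = 0.549). The 7 core subunits had a median of -0.16 and the 29 accessory subunits one of -0.70, and Ndufs1 was at 0.31 ± 0.42 (SE, adjusted p = 0.88). Without NIA replicate 4 the median over members was -0.21 and 0 members had an unadjusted p under 0.05, against 3.8% of all genes in either direction. That count was 31 without NIA replicate 1 or mNIA replicate 2, 11 without mNIA replicate 1 and 10 without mNIA replicate 3 or 4. Here and below, such a count without a share of all genes beside it describes the fit and not whether the members stood out. DESeq2 called 0 members (background 0.0224%) and limma-voom 5 (background 14.8%), all lower in mNIA, and edgeR without the 4 libraries of low weight called 14 (background 23.1%), 12 lower and 2 higher, the 2 being Ndufs1 and Ndufa10.

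Hearts on NIA were also set against hearts on chow, with the same NIA hearts as in the comparisons above. In NIA hearts 36 of 39 members had a higher mean than in chow hearts (median log2 fold change 0.66, all genes -0.01), and 19 did so with an unadjusted p under 0.05, against 6.52% of all genes. In edgeR 0 members passed (background 0%, smallest adjusted p 0.368), DESeq2 called 1, Ndufa12 (background 0.949%), and limma-voom 0 (background 0.209%). Every NIA heart was above every chow heart for 4 members, Ndufab1, Ndufb4, Ndufb4c and Ndufs4, against 1.32% of all genes. Ndufb4 averaged 412 ± 427 CPM in NIA hearts and 144 ± 10.8 in chow hearts (SD, n = 4 each), a log2 fold change of 1.50 ± 0.44 (SE, adjusted p = 0.368). Ndufs4 averaged 479 ± 368 CPM in NIA hearts and 237 ± 22.6 in chow hearts, a log2 fold change of 1.01 ± 0.35 (SE, adjusted p = 0.441). The core subunits had a median of 0.12 and the accessory subunits one of 0.67, with Ndufv1 at -0.25 ± 0.25 (SE, adjusted p = 0.817). Without NIA replicate 4 the median over members was 0.12, and 1 member, Ndufb4, had an unadjusted p under 0.05, against 3.73% of all genes in either direction. That count was 12, 12 and 11 without chow replicate 1, 2 or 4. Without the 4 libraries of low weight it was 8, against 22.1% of all genes in either direction, with 6 higher and 2 (Ndufs1 and Ndufa10) lower in NIA, and the median was 0.28.

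Between UW and chow the members leaned the other way, by a small amount. In UW hearts 36 of 39 members had a lower mean than in chow hearts, with a median log2 fold change of -0.27 (all genes -0.01). In edgeR 0 members passed (background 0%, smallest adjusted p 0.977), and DESeq2 and limma-voom called 0 (background 0.00747% each). In edgeR 1 member, Ndufa2, had a lower mean with an unadjusted p under 0.05 (-0.70 ± 0.31 (SE, adjusted p = 0.977)), against 1.14% of all genes. For 10 members every UW heart was below every chow heart, against 2.48% of all genes: Ndufa1, Ndufa2, Ndufa3, Ndufa4, Ndufa6, Ndufa11, Ndufab1, Ndufb2, Ndufb5 and Ndufb6. Ndufb6 averaged 113 ± 6.42 CPM in UW hearts and 150 ± 7.08 in chow hearts, and Ndufab1 324 ± 31.9 in UW hearts and 379 ± 17.5 in chow hearts (SD, n = 4 each). None of the 10 is a core subunit. Ndufs1, at 0.22 ± 0.42, Ndufa10, at 0.19 ± 0.32, and Ndufa12, at 0.06 ± 0.35, were the 3 with a higher mean in UW. The direction held without UW replicate 1 (median -0.22) and without UW replicate 4 (-0.22), the libraries with most of the lowest values. The count of 1 at an unadjusted p under 0.05 was 0 without chow replicate 3 or without UW replicate 1, 3 or 4, 2 without UW replicate 2, and 4 without NIA replicate 4. It was larger where the other diets did not enter the fit or libraries of low weight counted less: 11 members with UW and chow fitted alone (background 5.95%), 7 in limma-voom with quality weights (background 11.2%), 7 without the 4 libraries of low weight (background 6.56%) and 5 without NIA replicates 1 and 4, all lower in UW. These backgrounds count genes in either direction, as did 315 of the 13381 tested genes in the main fit, whereas the 1.14% counts lower genes only. The medians in these fits were -0.26, -0.23, -0.25 and -0.25.

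Hearts on mNIA had a median near 0 against chow and above 0 against UW. Against chow, 16 members had a higher and 23 a lower mean in mNIA hearts, with a median log2 fold change of -0.02 and values from Ndufa12 and Ndufs1 at the top (0.36 ± 0.35 and 0.36 ± 0.42) down to Ndufa2 at -0.30 ± 0.31. In edgeR 0 members passed (background 0.00747%), and DESeq2 and limma-voom called 0 and 0 (backgrounds 0% and 0.00747%). An unadjusted p under 0.05 was seen for 0 members, against 1.38% of all genes, and for 1 without mNIA replicate 2. The median was -0.16 without mNIA replicate 2 and lay between -0.04 and 0.02 without any other single library. Without the 4 libraries of low weight it was -0.17, and 5 members (Ndufb2, Ndufa2, Ndufb6, Ndufa11 and Ndufb11) had a lower mean with an unadjusted p under 0.05, against 9.48% of all genes in either direction. Against UW, all 39 members had a higher mean in mNIA hearts, with a median of 0.26 (all genes 0.02). No member passed in edgeR (background 0%) or had an unadjusted p under 0.05 (background 0.986%). DESeq2 and limma-voom called 0 (background 0.00747% each). For 2 members, Ndufab1 and Ndufv2, every mNIA heart was above every UW heart (background 0.77%). Ndufv2 averaged 677 ± 69.5 CPM in mNIA hearts and 552 ± 82.9 in UW hearts, a log2 fold change of 0.30 ± 0.36 (SE, adjusted p = 1). Without mNIA replicate 2 the median against UW was 0.10, as it was without the 4 libraries of low weight, where again 0 members had an unadjusted p under 0.05.

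The mean of the 3 primate formulas against chow does not depend on which formula group is which. In it 25 members had a fitted log2 fold change above 0 and 14 one below 0, with a median of 0.11 (all genes 0.00). In edgeR 0 members passed (background 0%), 0 had an unadjusted p under 0.05 (background 2.19%), and DESeq2 called 0 (background 0%) and limma-voom 0 (background 0.0299%). Without NIA replicate 4 the median was -0.05, without the 4 libraries of low weight it was -0.07, without mNIA replicate 2 it was 0.07, and without NIA replicates 1 or 2 it was 0.19 or 0.17. Without NIA replicate 2, 1 member had an unadjusted p under 0.05. In the joint test for any difference between diets, 0 members passed in edgeR (background 0%), with 26 of 39 at an unadjusted p under 0.05, against 6.88% of all genes, and the smallest adjusted p was 0.289, for Ndufb4. DESeq2 called 3 members (background 1.3%) and limma-voom 8 (background 14.8%), and edgeR without the 4 libraries of low weight called 9 (background 9.97%). Without NIA replicate 4, 1 member had an unadjusted p under 0.05 in edgeR (background 3.52%), and without UW replicate 1 there were 17.

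**Figure D3:**
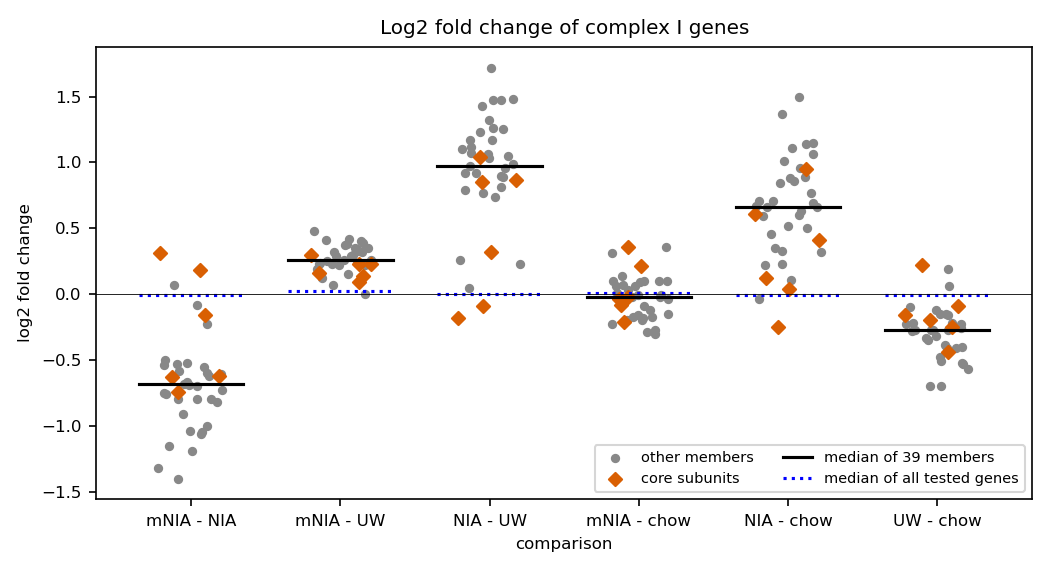
Log2 fold change (vertical axis) of 38 of the 39 complex I genes in the 6 comparisons of diets, with core subunits as orange diamonds, other members as grey points, the median of all 39 as a black line and the median of all tested genes as a dotted line. The median is 0.97 for NIA - UW and -0.27 for UW - chow, and most core subunits lie nearer to 0 than most accessory subunits in the comparisons with NIA.

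In part of the libraries, the level of a member went with the length of its transcript. The Spearman correlation over the 39 members was -0.47 in NIA replicate 4, -0.62 in mNIA replicate 2, -0.55 in chow replicate 3, -0.54 and -0.52 in NIA replicates 2 and 3 and -0.49 in UW replicate 1. It had the other sign in mNIA replicate 3 (0.60) and UW replicate 4 (0.44). In the other 8 libraries it lay closer to 0, from -0.32 in chow replicate 2 to 0.37 in UW replicate 3, and it was 0.03 in NIA replicate 1 and -0.05 in chow replicate 1. Lengths were those of the shortest best-supported principal transcript, and the order of libraries depended on that choice. With the longest such transcript the correlation was -0.45 in chow replicate 2, -0.41 in chow replicate 3, -0.39 in NIA replicate 4 and 0.44 in mNIA replicate 3. These are descriptions over genes of a single library, which share its RNA and depth. Over all tested genes the correlation was -0.50 in NIA replicate 4 and 0.46 in UW replicate 4 but -0.08 in chow replicate 3 and 0.17 in UW replicate 1. The ratio of Ndufs1 (2590 bases) to Ndufb2 (455 bases) in CPM ranged from 0.638 in chow replicate 3 and 1 in NIA replicate 4 to 9.03 in mNIA replicate 3 and 9.06 in UW replicate 4. The core transcripts run from 758 to 2590 bases and those of the accessory subunits from 419 to 2020. The median core level minus the median accessory level was -1.14 in NIA replicate 4, -0.68 in chow replicate 3 and -0.37 in mNIA replicate 2, against 0.22 in UW replicate 4 and 0.23 in mNIA replicate 3.

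**Figure D4:**
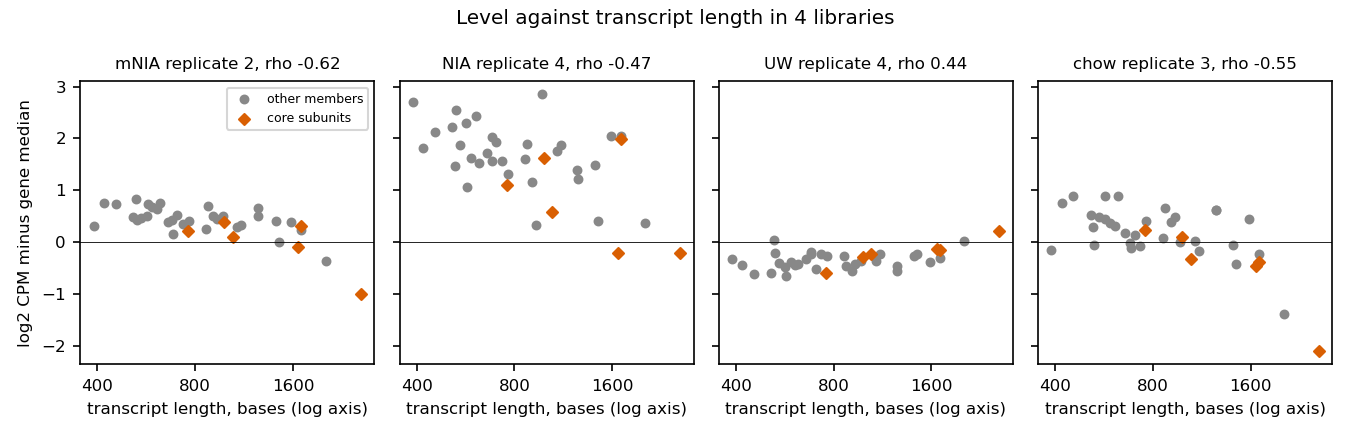
Level of 38 of the 39 complex I genes (log2 CPM minus the gene's median over 16 libraries) against transcript length in bases on a log axis, in 4 libraries, with core subunits as orange diamonds. In mNIA replicate 2, NIA replicate 4 and chow replicate 3 short transcripts are higher than long ones (rho over all 39 of -0.62, -0.47 and -0.55), and in UW replicate 4 lower (0.44).

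With each library's trend over transcript length taken out by offsets, the differences between diets were smaller. The median log2 fold change of the members was then 0.24 for NIA against UW, -0.13 for mNIA against NIA, 0.17 for NIA against chow and -0.11 for UW against chow. An unadjusted p under 0.05 was then seen for 12 members between NIA and UW, all higher in NIA (background 8.58% in either direction), and for 7 between NIA and chow (background 7.37% in either direction): Ndufb4, Ndufs4, Ndufv3, Ndufa12, Ndufv2, Ndufab1 and Ndufa4. Of these 7, Ndufs4, Ndufv3 and Ndufv2 have transcripts of 1698, 1582 and 1697 bases. Of 2 members, Ndufb2 and Ndufa2, the same held between UW and chow, both lower in UW (background 2.59% in either direction). In the main fit, 1858, 1164 and 315 of the 13381 tested genes had such a p in either direction in these comparisons, in the same order. What part length has in the differences between diets was not tested beyond this.

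Markers of several cell types moved with the same libraries. The level of the 10 cardiomyocyte markers was 1.18 in NIA replicate 4, -0.51 in UW replicate 1 and -0.56 in chow replicate 3, and -0.29 to 0.39 in the other 13. The level of the 10 endothelial markers was -0.88 in NIA replicate 4 and 0.51, 0.62 and 0.61 in mNIA replicate 2, UW replicate 1 and chow replicate 3. The summed level went the other way: NIA replicate 4 had the highest endothelial sum of the 16 libraries (6166 CPM). Fabp4 and Cd36, both lipid-handling genes, held most of it, at 2141 and 3451 CPM. The other 8 markers summed to 574 CPM there, where the remaining 15 libraries had 1058 to 2076. In NIA replicate 4, Fabp4, Cd36 and Emcn were above their medians (by 1.31, 0.73 and 0.58), Egfl7 was near its own (0.03) and the remaining endothelial markers were below. The summed level of the endothelial markers was 3897 to 5346 CPM in mNIA, 4607 to 6166 in NIA, 3840 to 5233 in UW and 3901 to 4943 in chow, and that of the cardiomyocyte markers was 60410 to 98261 CPM in mNIA, 48006 to 108747 in NIA, 51333 to 78032 in UW and 51902 to 79106 in chow. None of these 20 markers was at 0 in all libraries. The level of the 8 fibroblast markers was -0.93 in NIA replicate 4, 0.73 in UW replicate 1 and -0.21 to 0.24 in the other 14. The list was mixed in NIA replicate 4. Dcn (908 CPM, against 444 to 756 elsewhere) and Lum were 0.75 and 0.25 above their medians there, and the remaining fibroblast markers were below theirs. The sum of the 8 was 1953 to 2379 CPM in mNIA, 1736 to 2330 in NIA, 2001 to 3219 in UW and 2106 to 2470 in chow. For 6 erythrocyte markers the median log2 fold change was 1.01 between NIA and UW and -0.96 between UW and chow. At an unadjusted p under 0.05, 3 were higher in NIA than in UW (background 8.71% higher). Between UW and chow, 3 were lower in UW (background 1.14% lower). Other lists of cell markers are not described here.

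The level of the brown adipocyte markers, of which 3 of 6 passed the filter on low counts, was 2.20 in NIA replicate 4 and -0.42 to 0.60 in the other 15. Their sum was 689 to 1368 CPM in mNIA, 984 to 5291 in NIA, 647 to 840 in UW and 884 to 1220 in chow, with 5291 in NIA replicate 4. Nearly all of it came from Cox7a1 and Cox8b, subunits of complex IV that heart muscle also expresses, at 3613 and 1641 CPM in NIA replicate 4. Of the other markers, Adipoq, Plin1 and Elovl3 were at 0 there and at most 0.669, 0.393 and 0.268 CPM elsewhere. Cidea had 37 CPM in NIA replicate 4, against 21.4 to 39.9 elsewhere, and Ucp1 is absent from the deposited counts. For the cardiomyocyte, endothelial, fibroblast, erythrocyte and brown adipocyte markers, their part in the levels of complex I genes was not tested.

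Other nuclear genes of the respiratory chain varied with the members, and none passed in edgeR in any comparison. Between NIA and UW the median log2 fold change was 1.20 for 13 genes of complex IV (12 with an unadjusted p under 0.05, all higher), 1.01 for 9 of complex III (5 higher), 0.80 for 15 of complex V (9 higher) and 0.42 for 4 of complex II (1 higher). Of all tested genes 8.71% were higher at that p. Cox7a1, a heart and muscle subunit of complex IV, was at 1.80 ± 0.46 (SE, edgeR adjusted p = 0.139), and Uqcrb, of complex III, at 1.44 ± 0.40 (adjusted p = 0.148). For 18 assembly factors of complex I the median was 0.34, with 6 higher at an unadjusted p under 0.05, led by Dmac1 (0.84 ± 0.27, adjusted p = 0.194) and Ndufaf2 (0.91 ± 0.30, adjusted p = 0.205). For 15 regulators of mitochondrial biogenesis it was -0.10, with Pprc1, a coactivator, at -0.53 ± 0.24 (adjusted p = 0.333). Between UW and chow the medians were -0.31, -0.22, -0.20 and 0.00 for complexes IV, III, V and II, -0.08 for assembly factors and 0.16 for the regulators. In NIA replicate 4 the levels were 2.01 for complex IV, 1.68 for complex III, 1.67 for complex V, 0.96 for complex II and 0.71 for assembly factors, beside 1.62 for the members, and -0.08 for the regulators. In chow replicate 3 complex II was at -1.25, against 0.14 for the members of complex I.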

How the data were processed

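Ventricle RNA of 16 mice, 4 per diet, was sequenced. The deposited table holds expected counts per gene, unscaled and not always whole. The submitters' processing notes name BWA, DESeq2 and mm10 with no role or version, and the counting tool and gene models are not given in the sources used here. Library totals are given in the report. The table holds no gene whose counts sum to fewer than 10.

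Counts were rounded. Of 17737 genes, 13381 passed filterByExpr. edgeR 4.0.16 (R 4.3.3) fitted a quasi-likelihood model with TMM scaling, robust shrinkage and 1 mean per diet to all 16 libraries. Tests were 2-sided, with Benjamini-Hochberg adjustment over all tested genes and a threshold of 0.05. The common dispersion had a square root of 0.278. Confidence intervals are at 95%. Intervals on shares of counts cover counting error only. Log2 CPM used a prior count of 2. Of the genes, 98.1% matched GENCODE vM21, whose shortest best-supported principal transcript gave lengths. Length offsets came from a loess per library (span 0.5). The fit was run on simulated counts with a smaller spread than these data and no outlying libraries, which checks the code and not the power here. p-values measure the spread between single animals.

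Members and lists were chosen with earlier results of these data known. Genes given by library were those with the 3 smallest p in each of 7 contrasts and the joint test, core subunits, and Ndufs4, Ndufa1, Ndufab1, Ndufb8, Ndufa4 and Ndufa4l2, which came to 24. Of the members, 1 is counted in the lists but not reported here singly. For other lists, up to 2 genes with the smallest p in a contrast could be named. Alternatives were DESeq2 1.42.0, limma-voom 3.58.1 with quality weights, other scaling and filters, length offsets, the replicate number as a block, 2 diets alone, and left-out genes or libraries.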

Additional observations from a re-analysis of the deposited data

Results flagged for a closer look

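For each of the 24 genes given by library, the 4 values of each diet were searched for a highest or lowest value whose gap to the nearest of the others takes up most of the range of the 4, beyond Dixon's 95% limit. Of 96 such groups 20 held a value of this kind, all in 4 libraries. The limit gives about 1 in 20 by chance for independent groups. These groups are not independent, because the 24 genes share the same 16 libraries and were partly picked by small p. The 20 therefore cannot be set against that rate.

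In mNIA replicate 2, 7 values stood apart. Ndufs1, at 371 CPM, was below the other mNIA hearts, and Ndufa4 (1145 CPM), Ndufa6 (398), Ndufab1 (497), Ndufb2 (244), Ndufb8 (916) and Ndufs8 (288) were above them.

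In NIA replicate 4, 6 values stood apart, all of them high. These were Ndufa4 at 4005 CPM, Ndufv2 at 2466, Ndufb4 at 1051, Ndufab1 at 1046, Ndufs4 at 1028 and Ndufb4c at 703.

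In UW replicate 1, Ndufa10 was low, at 370 CPM.

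In chow replicate 3, 6 values stood apart. Ndufs1 (172 CPM), Ndufa10 (222) and Ndufv1 (455) were below the other chow hearts, and Ndufa2 (244), Ndufb2 (269) and Ndufa1 (294) were above them.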

How the results depend on the processing

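The counts of called members, 0 in edgeR in all 7 contrasts and the joint test, changed under these settings. DESeq2 called 20 between NIA and UW (background 2.8%), 1 between NIA and chow (0.949%) and 3 in the joint test (1.3%). Limma-voom called 7 between NIA and UW (background 6.85%), 5 between mNIA and NIA (14.8%) and 8 in the joint test (14.8%). Without the 4 libraries of low weight edgeR called 14, 14 and 9 in the same 3 tests (backgrounds 11.8%, 23.1% and 9.97%). The cause was not tested.

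Leaving out each library in turn gave 0 to 8 called members between NIA and UW (8 without NIA replicate 2, background 1.61%) and 0 in the others. The medians ranged from 0.45 to 1.20 for NIA against UW, -0.92 to -0.21 for mNIA against NIA, 0.12 to 0.88 for NIA against chow, -0.33 to -0.22 for UW against chow, 0.10 to 0.33 for mNIA against UW, -0.16 to 0.02 for mNIA against chow and -0.05 to 0.19 for the mean of the formulas against chow. Transcript-length offsets gave 0.24 for NIA against UW and -0.11 for UW against chow, and with the replicate block as well 0.23 and -0.12. Replicate numbers do not pair the samples: same-numbered libraries come from different animals, and the correlation of their deviations ran from -0.58 to 0.61 and was over 0.1 in 9 of 24 pairs. The replicate block alone called 0 members in each comparison and left medians of 0.91 for NIA against UW and 0.58 for NIA against chow.

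Leaving out Ndufb4c and Ndufs5, chosen after seeing the data, gave medians of 0.97 and 0.63 in these 2 comparisons. For single named genes, 4802 of 4848 values under alternatives kept their side of the threshold, and 46 passed it newly. Of the 4848, 147 had the other sign, in 54 of 168 pairs of gene and contrast, and none of the 147 passed the threshold. Ranked by the main value, the largest differences to change sign were those of Ndufa1 and Ndufv2 between mNIA and NIA. That of Ndufa1 was -0.75, and 0.02 with length offsets. That of Ndufv2 was -0.74, and 0.03 without NIA replicates 1 and 4. Among the 147, the largest value under an alternative had a size of 0.78. The median for mNIA against chow (-0.02) was 0.03 with length offsets, and that for the mean of the formulas (0.11) was -0.04 in limma-voom, -0.07 without the 4 libraries of low weight and -0.03 without NIA replicates 1 and 4.

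Counts at an unadjusted p under 0.05 also moved. No share of all genes is given for the fits in this paragraph, so these counts do not show whether the members stood out. With 2 diets alone there were 8 members for NIA against chow and 8 for mNIA against NIA. The replicate block gave 11 and 12 in these and 13 in the joint test. Without NIA replicates 1 and 4 there were 0 and 1 in these, 20 for NIA against UW and 4 in the joint test. Limma-voom gave 7 for NIA against chow and 1 for mNIA against chow. Length offsets gave 3 for mNIA against NIA and 6 in the joint test, and with the block as well 6 for NIA against chow, 9 for NIA against UW, 2 for mNIA against NIA and 3 in the joint test. NIA replicate 4, at 2278223 counts, is the shallowest library.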
